A study of Mus musculus with 6 samples.

Results

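The genes described here are the detected members of the mouse Zfp series, the genes whose symbol is Zfp followed by a number. They were chosen by their detection p-values: a gene was kept where a probe had a detection p under 0.01 on 3 or more of the 6 arrays, and the probe with the highest mean level stood for it. Of 331 Zfp genes on the array, 149 passed, 11 were detected on 1 or 2 arrays and 171 on none. Of the 149, 131 were detected on all 6 arrays, 9 on 5, 2 on 4 and 7 on 3. The detection rule looks at both sorted fractions, so a gene expressed on one side only had to differ: 4 of the 149 were detected in CD69- cells alone and 3 in CD69+ cells alone.

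Most Zfp proteins carry tandem C2H2 zinc fingers, in which a pair of cysteines and a pair of histidines hold a zinc ion and each finger reads a few bases of DNA. Many also carry a KRAB box, through which Trim28 and its partners place silencing marks on chromatin, often at transposable elements, and these genes lie in clusters that arose by duplication. A smaller group shares only the symbol. Zfp36 and Zfp36l1 are CCCH zinc finger proteins that bind AU-rich stretches of mRNA and recruit the deadenylases that start its decay, and other members work on ribosomes, spliceosomes or the SUMO pathway.

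The series compared T cells of C57BL/6 mice in 3 states. Naive mice were healthy and had no graft. Tolerant mice carried tail skin from a BDF1 donor (C57BL/6 x DBA/2) under donor specific transfusion and the anti-CD40L antibody MR-1 and were taken on day 100, while rejecting mice carried the same kind of graft with no treatment and were taken on day 7. T cells from spleen and lymph node of each state spent 20 to 21 h in culture with splenocytes of the donor strain from which T cells had been removed, and were then sorted into CD69+ and CD69- cells, CD69 being an early surface marker of T cell activation, and each of the 6 combinations was measured on 1 Illumina MouseWG-6 array. No combination was repeated and nothing used here tells how many mice an array stands for. A p-value therefore measures how a difference varies between states, which stand in for replicates. All samples shared the donor stimulator cells and the sort on CD3. The protocol label names CD69+ for both sorted fractions, so the fraction of each sample was taken from its title, and the Cd69 levels below are the check of it.

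The arrays were alike in depth, with 12669 to 13469 probes detected and 141 to 145 of the 149 Zfp genes. The non-normalized signal of Cd69, on which the cells were sorted, was 11275 to 16460 in CD69+ cells and 2216 to 6016 in CD69- cells. Of 12 T cell markers on the array 11 were detected, Cd8a being the exception, and their summed signal was 155487 to 179741 in CD69+ and 184627 to 227416 in CD69- cells. At limma adjusted p under 0.05, 7 of these 11 fell in CD69+ cells and none rose, with a median difference of -0.53 on the log2 scale. No marker of monocytes, macrophages and dendritic cells (0 of 9) or neutrophils (0 of 5) was detected. Of 10 B cell markers 3 were detected: Cd79b on all 6 arrays (signal 581 to 1259), Blk on 5, which was higher in CD69+ cells by 2.32 (SE 0.26, limma adjusted p = 0.00192), and Fcrla on 1, while Ms4a1, Cd22 and Pax5 were not. Of 7 natural killer cell markers 4 were detected, of which Klrd1 (-1.77, SE 0.19) and Prf1 (-0.92, SE 0.13) fell, Klrb1c was at least 1.65-fold higher in CD69+ cells and Klre1 did not pass. The 3 detected globin genes summed to 1890 to 6268 in CD69+ and 2870 to 37137 in CD69- cells. The 3 detected genes of the plasma cell list (Irf4, Xbp1 and Mzb1) summed to 21684 to 25110 and 5085 to 6637, while Sdc1, Jchain and Prdm1 were not detected. The tolerant CD69+ array stood out among the CD69+ arrays. Mzb1 had a signal of 3306 there, against 333 in naive and 427 in rejecting CD69+ cells. The 3 detected B cell markers summed to 2786 there, against 1328 and 1052, and Fcrla was detected on that array alone. The part of the cells behind these markers in the differences below was not tested.

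Promoters were read for what the Zfp genes share outside the arrays. The RefSeq promoter table (GRCm38.p6, 250 bases before to 50 after the first listed start) held 125 of the 149 genes. The promoter of Zfp36, the gene with the largest fall in CD69+ cells, is shown with its motif matches in capitals. The motifs searched, on both strands, were the GC box GGGCGG, ETS CCGGAAG, NRF1 GCATGCGC, CRE TGACGTCA, AP-1 TGANTCA, EGR GCGTGGGCG, YY1 AAGATGG, FOXO GTAAACA, STAT TTCNNNGAA, the core promoter run TATAAA, an NF-kB site and the CArG box. Zfp36 held an ETS site 92 bases before the start, a GC box on the other strand that shares its last base with a CArG box 58 bases before the start, and a STAT site 17 bases before it. It lies at chr7:28379179-28379478 on the minus strand.
Zfp36: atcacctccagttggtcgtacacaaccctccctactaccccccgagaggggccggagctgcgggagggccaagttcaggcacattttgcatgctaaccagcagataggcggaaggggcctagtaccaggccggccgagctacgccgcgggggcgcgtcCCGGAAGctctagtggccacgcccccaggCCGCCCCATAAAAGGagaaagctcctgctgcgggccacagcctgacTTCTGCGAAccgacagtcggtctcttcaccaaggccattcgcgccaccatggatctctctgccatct

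The promoters of 2 genes that rose in CD69+ cells are shown beside it for contrast in composition. That of Zfp326 (chr5:105876318-105876617, plus strand) held 34 CpG and 4 GC boxes, and that of Zfp239 (chr6:117861774-117862073, plus strand) held 4 CpG, no GC box, an AP-1 site and TATAAA on both strands, far from the start. Capitals mark these matches.
Zfp326: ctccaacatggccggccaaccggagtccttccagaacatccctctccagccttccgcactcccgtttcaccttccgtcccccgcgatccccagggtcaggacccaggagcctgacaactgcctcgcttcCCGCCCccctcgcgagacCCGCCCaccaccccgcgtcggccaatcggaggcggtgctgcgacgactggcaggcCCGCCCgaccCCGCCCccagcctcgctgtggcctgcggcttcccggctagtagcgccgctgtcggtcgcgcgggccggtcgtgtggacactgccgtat
Zfp239: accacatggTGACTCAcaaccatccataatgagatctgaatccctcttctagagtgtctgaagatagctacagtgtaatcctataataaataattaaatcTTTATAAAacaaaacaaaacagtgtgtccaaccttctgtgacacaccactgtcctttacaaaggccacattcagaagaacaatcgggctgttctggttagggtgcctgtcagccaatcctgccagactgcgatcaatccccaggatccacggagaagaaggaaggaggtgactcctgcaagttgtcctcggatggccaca

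Zfp promoters were less CpG-rich than those of the other detected genes. Their median was 17 CpG and 57% G and C, against 22 CpG and 61% in 6186 other named genes detected on 3 or more arrays, and 7 CpG in all 27025 promoters of the table. The GC box stood in 53.6% of Zfp promoters, 67.1% of the others and 35.9% of all. The ETS site stood in 20.0%, 21.2% and 9.12% in the same order. The STAT-type palindrome went the other way, in 16.8% of Zfp promoters (21 of 125), 6.89% of the others and 8.47% of all. A match is only a run of letters, and the absence of a match says only that these letters are not in this window.

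In 3 genes, Zfp180, Zfp790 and Zfp84, the palindrome went on into TGTAGT, which together with the preceding letters gives the pattern TGGGA, any 2 letters, TGTAGT. This pattern is close to the consensus known for human ZNF143, and it was searched after the windows had been read. It stood in 20 of 125 Zfp promoters (16%), 4.03% of the other detected genes and 1.62% of all promoters. Of its 21 matches 15 began within 100 bases before the start. The windows below are from 8 of these genes, in the order of their CD69 difference: the 4 with the lowest, Zfp790 and Zfp84 for the palindrome, and the 2 with the highest, with the pattern in capitals and written on the strand that carries it.
Zfp429 (chr13:67399819-67399847, minus strand): cagacttcTGGGAGATGTAGTccgcaccg
Zfp874b (chr13:67484269-67484297, minus strand): cagacttgTGGGAAATGTAGTctgtagca
Zfp595 (chr13:67332592-67332620, minus strand): ctgacttgTGGGAAATGTAGTccctacca
Zfp180 (chr7:24081865-24081893, plus strand): gagagttcTGGGAATTGTAGTtccattga
Zfp790 (chr7:29815959-29815987, plus strand): aggtattcTGGGAAATGTAGTtcaaggcc
Zfp84 (chr7:29768520-29768548, plus strand): ccgccttcTGGGAAATGTAGTccactata
Zfp940 (chr7:29853666-29853694, minus strand): tggactccTGGGAAATGTAGTtcaagact
Zfp738 (chr13:67683549-67683577, minus strand): ctgacttgTGGGAAGTGTAGTcccgtccc

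The 20 genes with this pattern were not all of 1 kind in the arrays. Of them 17 had a negative CD69 difference and 3 a positive one, 9 were called lower, 1 higher and 10 neither, with a median of -0.42 on the log2 scale, close to that of all 149 Zfp genes given below. Of the 20, 9 lie on chromosome 7 and 6 on chromosome 13, so several are neighbours from the same clusters and are not independent of each other.

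More Zfp mRNAs fell than rose in CD69+ cells. In the limma fit over all 10687 array features, with status as a block and Benjamini-Hochberg adjustment, 72 of the 149 genes fell in CD69+ cells and 16 rose (48.3% and 10.7%) at adjusted p under 0.05, while 61 did not pass. Over all features tested 33.1% fell and 29.6% rose. The difference was negative for 109 of the 149 genes (73.2%, against 52.5% of all features), and its median was -0.38 on the log2 scale (quartiles -0.74 and 0.02), against -0.05 for all features. In bulk samples fewer cells of a type and less RNA per cell cannot be told apart.

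The median was negative in each state. The median difference was -0.44 in the naive pair of arrays, -0.35 in the tolerant pair and -0.37 in the rejecting pair. All 3 pairs were negative for 91 genes and positive for 26 of the 149, against 4516 and 4071 of all 10687 features. No gene past the threshold changed direction between pairs, which passing a fit over the 3 pairs largely requires. All 3 CD69+ levels lay below all 3 CD69- levels for 80 genes (53.7%, against 35.5% of all features) and above them for 20 (13.4%, against 33.0%), and the fractions overlapped for 49. Among the 131 genes detected on all 6 arrays, where detection on one side played no part, 65 fell and 11 rose. The counts for all 6631 named genes detected on all 6 arrays were 2233 that fell and 1946 that rose (33.7% and 29.3%).

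**Figure D1:**
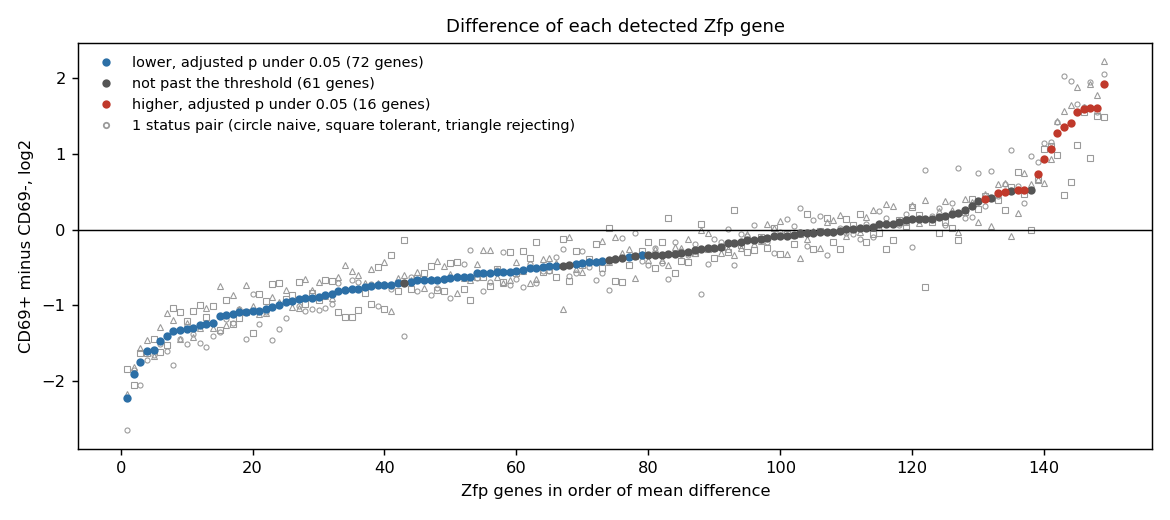
CD69+ minus CD69- difference on the log2 scale (vertical axis) of each of the 149 Zfp genes, in order of the mean difference (horizontal axis). Filled points are means over the 3 states, coloured by the call at adjusted p under 0.05, and open symbols are the single pairs of arrays; 72 genes are called lower, 16 higher and 61 neither.

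Zfp genes were also set against genes of like signal. The other 7344 named genes of the same level range that met the same detection rule were taken in 4 ranges of mean level, weighted to the Zfp genes' numbers, as a description with no test. Of these like-signal genes 32.2% fell and 32.0% rose, against 48.3% and 10.7% of the Zfp genes, and 50.6% were negative against 73.2%. From the dimmest to the brightest range the share that fell was 35.1%, 45.9%, 54.1% and 57.9% of Zfp genes and 27.8%, 32.8%, 32.4% and 35.5% of like-signal genes. The share that rose was 13.5%, 13.5%, 8.11% and 7.89% of Zfp genes, and 31.1% to 32.9% of the others. The split of calls moves with the scaling: with array medians centred in place of quantile normalization, 50 Zfp genes fell and 20 rose, and the median of all features moved from -0.05 to 0.09, yet the Zfp median stayed below it by 0.33 under both (-0.33 as a difference of medians).

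**Figure D2:**
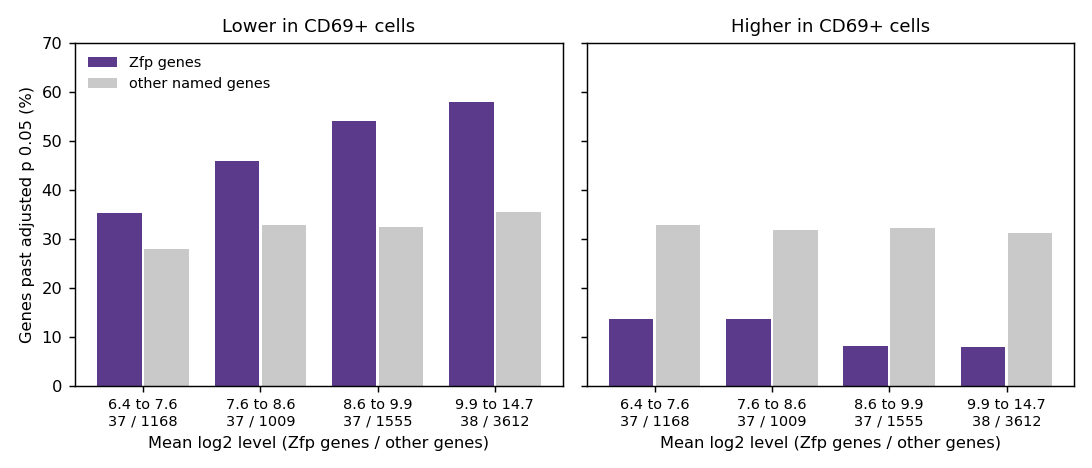
Percent of genes past adjusted p 0.05 (vertical axes, from 0) that were lower (left) or higher (right) in CD69+ cells, for Zfp genes and other named genes in 4 ranges of mean log2 level, with the numbers of both under each range. Zfp genes fell in 35.1% to 57.9% of cases and the other genes in 27.8% to 35.5%.

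Zfp36, which encodes tristetraprolin, had the largest fall of all 149. Its log2 level in CD69+ cells was 11.73 in naive, 12.29 in tolerant and 12.24 in rejecting mice, and in CD69- cells 14.38, 14.13 and 14.41. The fractions did not overlap, and the gap was widest in naive mice. The difference was -2.22 (SE 0.18, n = 3 pairs, limma adjusted p = 0.00117), a 4.66-fold lower level in CD69+ cells. Zfp36l1, its close relative and the Zfp gene with the highest level, had 14.35, 14.65 and 14.50 in CD69+ cells and 15.01, 14.84 and 14.91 in CD69- cells. These groups did not overlap either, but the gap was small, -0.42 (SE 0.14, limma adjusted p = 0.0451). The call was lost without the naive pair (-0.30, adjusted p = 0.202), without the rejecting pair (-0.43, adjusted p = 0.175) and with array medians centred (-0.36, adjusted p = 0.109).

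The mRNAs that this protein family is known to bind moved mostly the other way. Of 15 listed AU-rich mRNAs 12 were measured, of which 8 rose and 2 fell in CD69+ cells (66.7% and 16.7%, against 29.6% and 33.1% of all features), with a median difference of 3.18. Both the count of rises and the median include genes undetected in CD69- cells, such as Il2 and Ccl3. These genes were measured only through the CD69+ arrays, so they could hardly count as falls. A link between these mRNAs and the level of Zfp36 was not tested. Il2, the T cell growth factor, was not detected in CD69- cells and was at least 84.2-fold higher in CD69+ cells, with log2 levels of 13.56, 12.24 and 13.43. The chemokine Ccl3 was likewise undetected in CD69- cells and at least 53.2-fold higher. Fos, an AP-1 subunit, fell by 3.74 on the log2 scale (SE 0.27, limma adjusted p = 0.000993) and Bcl6, a repressor of the same zinc finger class as many Zfp proteins, fell by 2.24 (SE 0.29, limma adjusted p = 0.00286). The Zfp36 family's usual partners in decay were mixed: of 19 measured deadenylation and decapping genes 8 fell (42.1%, against 33.1% of all features) and 2 rose, with Tob1, which recruits the deadenylase, at -2.44 (SE 0.16) and the decapping enzyme Dcp2 at 1.64 (SE 0.20). Of 12 measured genes on a list of other CCCH and Roquin genes 5 fell (41.7%) and 2 rose. The extremes were Zc3hav1, an antiviral RNA-binding protein, at -1.06 (SE 0.13) and Zc3hc1, whose zinc finger is not of the CCCH type, at 0.74 (SE 0.12).

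The next largest falls were of C2H2 genes, few of which have a known role in T cells. Zfp386 had log2 levels of 7.01 in naive, 7.18 in tolerant and 7.13 in rejecting CD69+ cells and 8.87, 9.23 and 8.94 in CD69- cells. All 3 CD69+ levels lay well below, and the difference was -1.91 (SE 0.11, limma adjusted p = 0.000851), a 3.75-fold lower level, and -1.24 without background correction. Zfp654 had 8.05, 8.47 and 8.81 in CD69+ cells and 10.11, 10.10 and 10.37 in CD69- cells, a difference of -1.75 (SE 0.14, limma adjusted p = 0.00114). Its other detected probe gave -1.83. For Zfp292, a transcription factor first described at the growth hormone gene, the levels were 10.51, 10.99 and 10.96 against 12.16, 12.43 and 12.62, and the difference -1.59 (SE 0.11, limma adjusted p = 0.000993) came with -1.81 and -1.76 from its other 2 probes. In each of these genes all 3 CD69+ levels thus lay below all 3 CD69- levels, which their choice as the largest falls favours.

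Zfp658, whose human counterpart is known to regulate zinc-responsive genes, had 6.73, 7.53 and 6.96 in CD69+ cells and 8.45, 9.15 and 8.41 in CD69- cells. Both fractions were highest in tolerant mice, and the CD69 difference was -1.60 (SE 0.12, limma adjusted p = 0.000993), or -0.99 without background correction. Zfp658 was not detected on every array. Zfp97 was not detected in CD69+ cells, and its level in CD69- cells was at least 1.67-fold higher (7.06, 7.49 and 7.63). Zfp12 (-1.41, SE 0.14), Zfp157 (-1.34, SE 0.18), Zfp212 (-1.32, SE 0.13) and Zfp429 (-1.31, SE 0.12) complete the 10 largest fitted falls, all without overlap between the fractions. The place of Zfp97 among them rests on a fitted difference against an undetected probe, and without background correction Zfp157 was at -0.88. Zfp212 was the third brightest of the 149, with log2 levels of 11.24 to 11.75 in CD69+ and 12.68 to 12.84 in CD69- cells. Of the genes detected on at least 1 array of each fraction, 20 fell by 2-fold or more, and of those detected on all 6 arrays 18 did. With genes detected on one side only included, 23 of the 149 fell that far, against 1528 of all 10687 features.

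The rises were fewer, and 6 reached 2-fold among genes detected on at least 1 array of each fraction. Among genes detected on all 6 arrays 4 did. With genes detected on one side only included, 9 of the 149 did, against 1629 of all 10687 features. Zfp239, also called MOK2 and known to bind both DNA and RNA, had log2 levels of 8.91 in naive, 8.46 in tolerant and 8.89 in rejecting CD69+ cells, and 6.85, 6.97 and 6.66 in CD69- cells. The fractions stood apart in every state, by 1.93 (SE 0.18, limma adjusted p = 0.00139), or 3.81-fold, and by 1.17 without background correction. Zfp326, known from human cells as part of a complex that couples transcript elongation to splicing, had 9.12, 8.89 and 9.0 against 7.46, 7.77 and 7.12, a rise of 1.55 (SE 0.18, limma adjusted p = 0.00209). Of its other 2 detected probes one gave 1.37 and the other 0.14.

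Zfp428 (1.61, SE 0.24, or 0.87 without background correction) and Zfp771 (1.28, SE 0.14) rose as well, and so did Zfp296 (1.36, SE 0.32), a factor known from pluripotent cells. Zfp428 was likewise not detected on every array. The log2 levels of Zfp296 were 9.47, 8.64 and 9.32 in CD69+ cells and 7.43, 8.18 and 7.75 in CD69- cells, so the gap in tolerant mice was the narrowest of the 3. Its call was lost when the naive pair was left out (1.02, limma adjusted p = 0.0511) or the rejecting pair (1.25, limma adjusted p = 0.0571). Zfp518b, a partner of the histone methyltransferase G9a in human cells, Zfp52 and Zfp202, whose human counterpart represses genes of lipid metabolism, were detected in CD69+ cells alone and were at least 1.56-fold, 2.04-fold and 1.61-fold higher there. Zfp593 and Zfp207 complete the 10 largest fitted rises, in which the order of the genes detected on one side only is not settled.

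**Figure D3:**
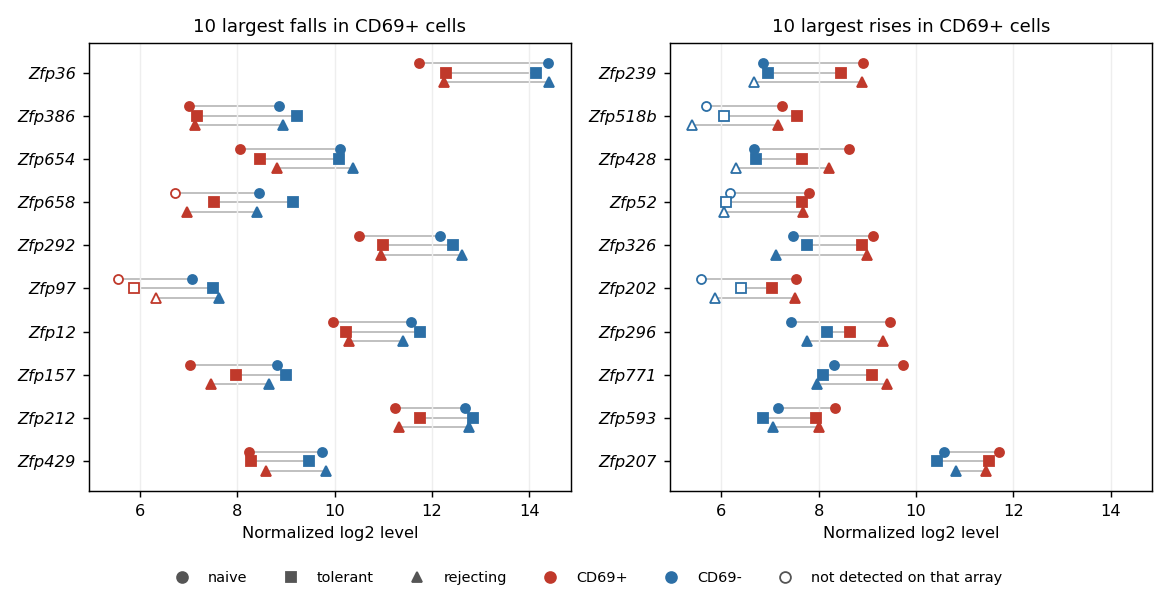
Normalized log2 level (horizontal axes) of the 10 Zfp genes with the largest fitted falls (left) and the 10 with the largest fitted rises (right) in CD69+ cells, with 1 symbol per array: red for CD69+, blue for CD69-, shape for the state and open where the probe was not detected, and a line joining the 2 arrays of a state. Zfp36 sits at 11.73 to 12.29 in CD69+ and 14.13 to 14.41 in CD69- cells.

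Of 17 listed Zfp genes that act on RNA, ribosomes or translation 9 were measured. Of these 3 rose and 2 fell in CD69+ cells (33.3% and 22.2%, against 29.6% and 33.1% of all features), with a median of 0.38, against -0.38 over all Zfp genes and -0.05 over all features. The group median was 0.75 in the naive pair of arrays, 0.28 in the tolerant pair and only 0.05 in the rejecting pair. Besides Zfp326, Zfp593, known for its part in assembling the large ribosomal subunit, rose by 1.07 (SE 0.11, limma adjusted p = 0.00173; 0.61 without background correction), with levels of 8.33, 7.95 and 8.01 against 7.17, 6.85 and 7.07. Zfp207, which loads the spindle checkpoint protein Bub3 and is listed here for its ties to splicing, was at 11.71, 11.50 and 11.43 against 10.57, 10.43 and 10.82. That rise of 0.94 (SE 0.15, limma adjusted p = 0.00493) rests on 1 probe, since a second, dimmer probe gave -0.24 (limma adjusted p = 0.165). Zfp346, a binder of double-stranded RNA, fell by 0.71 (SE 0.11, limma adjusted p = 0.00451), and by 0.40 without background correction.

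Zfp277 fell by 0.48 (SE 0.11, limma adjusted p = 0.0186), a call lost with array medians centred (-0.23, adjusted p = 0.188) and without the naive pair (-0.53, adjusted p = 0.0556) or the rejecting pair (-0.49, adjusted p = 0.109). Its second probe gave -0.78. The rest of the group did not pass. Zfp598, the ubiquitin ligase that marks collided ribosomes, differed by 0.42 (SE 0.17, limma adjusted p = 0.0883) and the RNA-binding Zfp106 by 0.38 (SE 0.16, limma adjusted p = 0.0971), and both passed as rises with array medians centred (0.55 and 0.52). The nucleolar Zfp330 differed by -0.31 (SE 0.11, limma adjusted p = 0.0575) and passed as a fall under 7 other settings, while its second probe gave 0.10. Among those settings, the authors' own value table and no background correction gave the same value. Zfp638, known for binding pre-mRNA in adipocyte differentiation, differed by -0.07 (SE 0.11). In the ubiquitin and SUMO group 2 of 7 listed genes were measured: the SUMO ligase Zfp451 fell by 0.74 (SE 0.13, limma adjusted p = 0.00768), or by 0.48 without background correction, and the ubiquitin ligase Zfp91 differed by -0.03 (SE 0.13).

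Of 37 listed Zfp genes with known DNA or chromatin roles 16 were measured, of which 6 fell and 2 rose (37.5% and 12.5%, against 33.1% and 29.6% of all features), with a median of -0.35. By pair of arrays that median was -0.52 in naive, -0.21 in tolerant and -0.10 in rejecting mice. Of the 6 with the highest levels, Zfp292 is given above. Zfp592, a partner of the chromatin reader Zmynd8, fell by 1.12 (SE 0.12, limma adjusted p = 0.00184), from 11.33 to 11.39 in CD69- cells down to 10.14 to 10.40. Zfp148, which binds GC-rich promoters, fell by 0.73 (SE 0.14, limma adjusted p = 0.00915), and its second probe gave -1.44. Zfp281, a repressor best known from stem cells, had 10.51, 10.77 and 10.88 against 11.30, 10.75 and 11.31. It overlapped between the fractions, with 10.77 and 10.75 in tolerant mice. Its difference of -0.40 (SE 0.18, limma adjusted p = 0.116) passed as a fall without the tolerant pair (-0.61, adjusted p = 0.0172), and its second probe gave 0.01.

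Zfp131 (0.08, SE 0.13) and Zfp219 (0.02, SE 0.12), both among the brightest of the 149, did not pass. Zfp335, which mice need to produce mature T cells, differed by -0.04 (limma adjusted p = 0.787). Zfp809, which brings Trim28 to retroviral DNA in mouse cells, fell by 0.78 (SE 0.16, limma adjusted p = 0.0108), and Zfp318, known for the splicing of immunoglobulin D in B cells, fell by 0.89 (SE 0.12, limma adjusted p = 0.00355). These 3 genes were picked for their known roles after their values were seen.

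Of 21 genes listed for the KRAB corepressor complex and chromatin silencing 14 were measured. The list is wider than the complex that KRAB boxes recruit, since it also holds genes such as Uhrf1 and Trim33. In CD69+ cells 9 rose and 3 fell (64.3% and 21.4%, against 29.6% and 33.1% of all features), with a median of 0.57. Trim28, the scaffold that KRAB boxes bind, had log2 levels of 13.66, 13.59 and 13.58 in CD69+ cells and 13.10, 13.08 and 13.23 in CD69- cells, a rise of 0.48 (SE 0.11, limma adjusted p = 0.0166). The methyltransferase Setdb1 rose by 0.55 (SE 0.15, limma adjusted p = 0.0254). The largest rises were of Uhrf1 (4.23, SE 0.13) and Cbx5 (1.22, SE 0.18), which bind methylated chromatin and which dividing cells raise, and the largest falls of Trim33 (-1.93, SE 0.12) and Morc3 (-0.92, SE 0.14). Trim28 and Setdb1 were named after their values were seen.

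Other zinc finger genes were counted in the same way. Of 37 measured Zbtb, Zscan and Zkscan genes 21 fell and 5 rose (56.8% and 13.5%, against 33.1% and 29.6% of all features), with a median of -0.57. Of 25 measured zinc finger factors of T cells 14 fell and 6 rose (56.0% and 24.0%), with a median of -0.67. The lists share 9 measured genes. Zbtb20 fell by 1.92 (SE 0.33, limma adjusted p = 0.00672) and Zbtb2 by 1.81 (SE 0.16, limma adjusted p = 0.00134). Zbtb32, a repressor induced on lymphocyte activation, had log2 levels of 11.67, 10.45 and 11.53 in CD69+ cells against 6.49, 7.22 and 5.77, a rise of 4.72 (SE 0.50, limma adjusted p = 0.0018). Zbtb46 was undetected in CD69- cells and at least 1.09-fold higher in CD69+ cells. Zeb2, a repressor known from effector T cells, was likewise undetected in CD69- cells and at least 2.14-fold higher in CD69+ cells.

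Many of these genes are neighbours in the genome. In the RefSeq gene order 71 of the 149 stand next to another Zfp gene, and 34 of these fell and 8 rose (47.9% and 11.3%), against 38 and 8 of the other 78 (48.7% and 10.3%), with medians of -0.38 in both. Of 19 pairs of neighbouring Zfp genes 9 had differences of the same sign (47.4%), against 54.0% of 3433 other pairs of neighbouring detected genes. Zfp282 (0.48) and Zfp212 (-1.32) are neighbours with opposite calls, and Zfp874b (-1.26), Zfp58 (-0.34), Zfp87 (-1.24) and Zfp748 (-0.34) are a run of 4 with negative differences. The median promoter held 16 CpG in the genes that fell and 18.5 in those that rose. The ETS site stood in 25.8% of the 62 promoters of genes that fell, in 1 of 14 of those that rose and in 16.3% of the 49 not called. Among the other detected genes it stood in 17.1% of those that fell and 23.2% of those that rose. With 14 promoters on one side, no link between the site and the direction can be read from this.

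The 3 states were first compared over both fractions, 2 arrays against 2, in an additive limma fit with fraction as a block. No Zfp gene passed adjusted p 0.05 in any of the 3 comparisons, where 0.00936% of all features did for tolerant against naive, 0% for rejecting against naive and 0.0187% for rejecting against tolerant. At an unadjusted p under 0.05 there were 12 Zfp genes for tolerant against naive (11 higher in tolerant, 1 lower), 8 for rejecting against naive (all higher in rejecting) and 13 for rejecting against tolerant (2 higher in rejecting, 11 lower). The shares were 8.05%, 5.37% and 8.72%, against 12%, 4.74% and 14.3% of all features. The comparisons share arrays, so their lists are not independent.

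Zfp658 came closest. It was higher in tolerant than naive mice by 0.75 (SE 0.14, limma adjusted p = 0.405) and lower in rejecting than tolerant mice by 0.65 (-0.65, SE 0.14, limma adjusted p = 0.232). Its tolerant level was the highest of the 3 in both fractions. Zfp62 was higher than in naive mice by 0.61 in tolerant and 0.50 in rejecting mice (SE 0.13 for both), with adjusted p of 0.405 and 0.969 in limma. Zfp3 was lower in rejecting than tolerant mice by 0.56 (-0.56, SE 0.15, limma adjusted p = 0.257).

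Within a fraction 1 array stood against 1, so no test was possible. Differences of 1.5-fold or more were counted where the brighter of the arrays had a raw signal of 500 or above. Between tolerant and naive CD69+ cells 5 Zfp genes were higher in tolerant and 3 lower (3.36% and 2.01%, against 8.89% and 6.26% of all features, and 8.06% and 8.04% of like-signal genes). The widest was Zfp646, with log2 levels of 7.56 in naive, 9.02 in tolerant and 8.27 in rejecting CD69+ cells, 2.75-fold higher in tolerant than naive. Zfp865 followed at 8.35, 9.30 and 8.64, 1.93-fold higher in tolerant, and Zfp869 at 10.57, 11.30 and 10.96, 1.65-fold higher. In CD69- cells the states lay closer for these 3 genes, with Zfp646 at 8.96, 9.16 and 8.87, Zfp865 at 9.0, 9.14 and 9.11, and Zfp869 at 11.82, 12.14 and 12.08.

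The 3 genes lower in tolerant than naive CD69+ cells were all among the 10 with the largest fitted rises in CD69+ cells. Zfp428 was 1.93-fold lower (8.62 in naive, 7.67 in tolerant, 8.22 in rejecting CD69+ cells), Zfp296 1.77-fold lower and Zfp771 1.56-fold lower (9.73, 9.09 and 9.40). Of the 16 genes that rose in CD69+ cells, 11 rose least in the tolerant pair (68.8%, against 61.2% of all features that rose), and their median rise was 0.86 there, 1.29 in the naive and 1.19 in the rejecting pair. Of the genes that fell, 32 of 72 fell least in the tolerant pair (44.4%, against 59.9% of all features that fell) and 32 in the rejecting pair, with medians of -0.81, -0.81 and -0.70 in naive, tolerant and rejecting pairs. These are descriptions, since the pairs were not repeated.

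Between rejecting and naive CD69+ cells 1 Zfp gene was higher in rejecting and none lower (0.671% and 0%, against 1.68% and 0.365% of all features). It was Zfp654, 1.69-fold higher, with 8.05 in naive and 8.81 in rejecting. Between rejecting and tolerant CD69+ cells 1 was higher in rejecting, Zfp296 at 1.60-fold, and 6 were lower (0.671% and 4.03%, against 4.76% and 6.51% of all features). The widest of the 6 were Zfp646 (1.68-fold), Zfp3 (1.61-fold, 9.14 in tolerant and 8.45 in rejecting) and Zfp865 (1.58-fold). Since this comparison shares the tolerant array with the last, Zfp646, Zfp865 and Zfp296 appear in both.

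Few Zfp genes differed this much between states in CD69- cells. Between tolerant and naive 1 Zfp gene was higher in tolerant and none lower (against 0.683% and 1.54% of all features), between rejecting and naive there was none in either direction (against 1.22% and 0.711%), and between rejecting and tolerant none was higher and 1 lower in rejecting (against 2.7% and 2.25%). The gene was Zfp658 both times, at 8.45 in naive, 9.15 in tolerant and 8.41 in rejecting CD69- cells, 1.62-fold and 1.67-fold apart. Small shifts were more general: 106 of the 149 genes were higher in tolerant than naive CD69- cells, with a median of 0.09, where the median of all features was 0.02. The share that was lower in tolerant was 28.9%, against 45.0% of like-signal genes. The highest of a gene's 6 levels fell on the tolerant CD69- array for 55 genes and on the rejecting CD69- array for 39, and the lowest on the naive CD69+ array for 58. Such counts were not made over all features, and they partly follow from the lower level of most Zfp genes in CD69+ cells. With 1 array each, a shift between states of this size and a property of an array cannot be told apart.

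**Figure D4:**
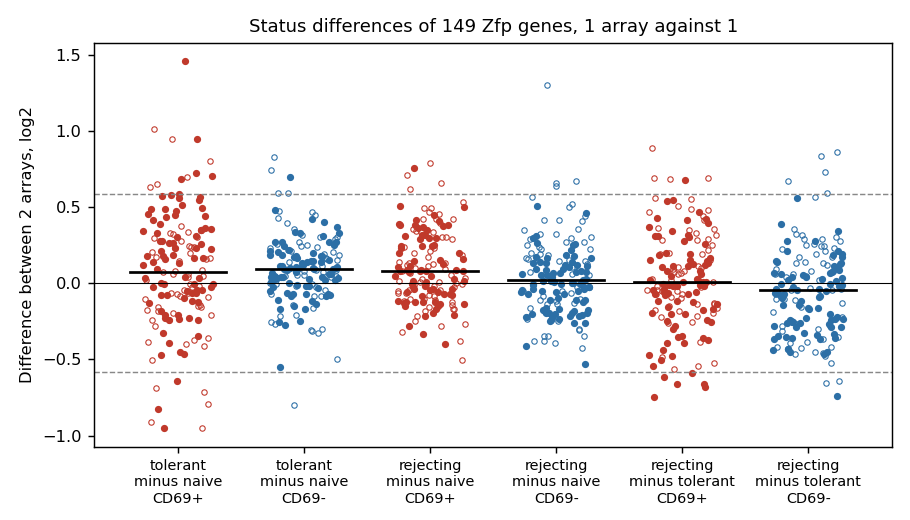
Difference between 2 single arrays on the log2 scale (vertical axis) for each of the 149 Zfp genes, by pair of states and fraction (horizontal axis, with points spread sideways for sight). Red is CD69+ and blue CD69-, filled points reach a raw signal of 500 on one of the arrays, black bars are medians and dashed lines mark 1.5-fold; Zfp646 at 1.46 is the highest point of the tolerant minus naive CD69+ column.

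At the edges of the rule the levels were near background. The 3 dimmest of the 149 were Zfp652 (mean log2 level 6.40), Zfp518b (6.52) and Zfp324 (6.58). Among genes detected on 3 arrays, just inside, were Zfp518b, Zfp52 and Zfp652, the last of them detected in CD69- cells alone and at least 1.15-fold lower in CD69+ cells. Just outside, detected on 2 arrays, were Zfp446 (6.60), Zfp689 (6.53) and Zfp810 (6.30), with differences of 0.47, -0.82 and -1.20 that were left out of every count above. The probe of Zfp36l2, the other close relative of Zfp36, was not detected on any array. Of 51 further detected probes of 41 of the genes, 44 had the same direction as the chosen probe, as did 35 of 37 belonging to genes past the threshold.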

How the data were processed

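The 6 T cell samples went onto 1 MouseWG-6 array each (Illumina, 1 colour) from 0.55 µg of RNA, per the labels' protocols, and were grouped by title. Per the file headers, the non-normalized table deposited by the authors gives linear signal intensity and a detection p-value for 45281 probes. GenomeStudio 2009.2 was used by the authors, per the submitters' processing notes. A second table of the authors gives linear intensity values in the same rank order, with a median of 168.3 in every column. How it was made is not stated, and it served as an alternative. It gave the same counts and median differences as quantile normalization without background correction, so these alternatives are not independent of each other. No batch was tested, as neither slide nor scan date was known.

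Log2 levels came from limma 3.58.1 in R 4.3.3: normexp background correction with negative controls estimated through the detection p-values, offset 16, and quantile normalization. Of the probes 34885 had 1 symbol in the platform annotation, 18 several and 10378 none, and all 149 Zfp genes matched the GRCm38.p6 gene table under the same symbol. Features with detection p under 0.01 on at least 1 array, 1 probe per symbol, gave 10687. Tests were 2-sided lmFit and eBayes with 2 residual degrees of freedom, adjusted over all features. An undetected side gives a bound against the dimmest detected probe of each array (6.56 to 6.81) or the gene's own, if higher. The CD69 fit was also run on simulated data with equal noise in every feature, no status effect and few changed features. It recovered 52 of 67 planted 1.5-fold changes and all those of 2-fold and 4-fold, with 13 false calls. Far more features differed in the arrays, so this does not give the error rate of the calls above. The genes named were the 10 largest fitted rises and falls, the RNA, decay, SUMO and brightest DNA groups, the widest status differences and those at the edges of the rule; exceptions are marked. The genes and lists were chosen with earlier results of these data known. Alternatives changed the value table, background, scaling, offset, filter, block, variance, probe or pairs.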

Additional observations from a re-analysis of the deposited data

How the results depend on the processing

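The Zfp genes called in the CD69 comparison numbered 16 higher and 72 lower. Both counts stayed within 1.5 times under all other settings: 12 to 20 higher and 50 to 77 lower, the last of these extremes with features detected on 3 or more arrays and the 20 and 50 with array medians centred, where 28.6% of calls were rises against 18.2%. Leaving out 1 pair gave 11 to 17 higher and 48 to 77 lower, with 48 without the rejecting pair and 51 without the naive pair. The status pairing follows from the design, and the fit without the replicate block called 16 and 71. The lower share above like-signal genes was 16.2 percentage points and 10.3 with medians centred. No Zfp gene was called between statuses under any setting run. The single-array counts were the least stable. From 8, 1 and 7 genes in CD69+ cells (tolerant and naive, rejecting and naive, rejecting and tolerant) and 1, 0 and 1 in CD69- cells, the authors' table and no background correction each left 0 in the second and last CD69+ and in the first and last CD69- comparisons. Medians centred gave 19 and 2 in the first and second CD69+ and 2 and 2 in the first and second CD69- comparisons. Features on all 6 arrays gave 0 in the first and last CD69- comparisons. A 2-fold minimum gave 1, 0 and 0 in CD69+ and 0 in the first and last CD69- comparisons, and no signal minimum 19, 5 and 11 in CD69+ and 6, 4 and 8 in CD69- cells. Of 471 values of single named genes 432 kept sign and side of the threshold, 12 lost the call, 19 gained one, 7 that passed under neither setting changed sign (in 6 genes) and 1 called value turned, Zfp207 by its second probe (-0.24). These values count the authors' table and no background correction apart, though both gave the same differences. Without background correction 15 of 40 named genes had a difference more than 1.5 times smaller. The causes were not tested. Signal near background limits the dimmest genes, since the lowest level of a detected probe was 6.56 to 6.81.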
